A study of Mus musculus with 6 samples.

Results

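The metabotropic glutamate receptors are G protein-coupled receptors through which glutamate modulates synapses, as opposed to the ion channels that carry fast transmission. They are sorted into 3 groups by sequence and coupling. Group I couples to Gq and phospholipase C, sits mainly on the postsynaptic side, and is known to open TRPC cation channels downstream of phospholipase C. Groups II and III couple to Gi/o, lower cyclic AMP and, at many presynaptic terminals, restrain transmitter release. Described here are 7 genes of this family, Grm2 to Grm8, among 22180 genes measured: Grm5 of group I, Grm2 and Grm3 of group II, and Grm4, Grm6, Grm7 and Grm8 of group III. They were chosen by name, from probe sets whose annotation names 1 gene only, and where a gene had several probe sets the one with the highest mean over all 6 arrays stood for it.

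RNA came from the hippocampus of male mice at postnatal day 56, all on a C57BL/6J background. There were 3 samples of the Trpc4 knockout genotype and 3 of the Trpc4 wild type genotype, with 1 Affymetrix array each. Trpc4 codes for a TRPC cation channel that opens downstream of receptors coupled to phospholipase C. The labels give the knockout as a deletion without naming the part of the gene removed, and they do not state whether each replicate is a separate animal or whether the wild-type mice were littermates, so the p-values speak only of the spread among these arrays, which may be technical. Every value below is a log2 RMA signal, and every difference is knockout minus wild type on that scale, so that a difference of 1 would be a doubling.

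The arrays were alike, with medians between 4.73 and 4.75 and Pearson's r of 0.985 to 0.988 between any pair across probe sets. Trpc4 itself was lower in every knockout array (7.39, 7.55 and 7.31) than in any wild-type array (8.06, 8.23 and 8.06). Its knockout signal was still 61.5% of wild type, and over all genes Trpc4 did not pass either (adjusted limma p 0.738). The tissue was labelled hippocampus, and all 8 measured markers of dentate granule cells, all 5 of CA1 and all 6 of CA3 lay above the median of all probe sets (4.72), while 0 of 4 retinal markers did. All 5 thalamic markers, 2 of 3 striatal and 2 of 5 cerebellar ones lay above it too. The cerebellar ones were Zic1 and Zic2. Zic1 had 5.66 ± 0.41 in knockout and 6.62 ± 0.55 in wild type (SD, n = 3 each), without overlap. It differed by -0.96 and did not pass, and 3 of the 5 cerebellar markers were higher in knockout. Whether the samples differed in neighbouring tissue was not tested. Of 13 oligodendrocyte and myelin markers all were lower in knockout, with summed linear signals of 3746 to 5643 in knockout and 6049 to 6331 in wild type. None of the 13 passed the test over all genes, of which 54.9% had a higher mean in knockout. In bulk tissue, fewer cells of a type and less RNA per cell cannot be told apart.

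Among the receptors, the wild-type signal lay above the median of all probe sets for 6 and below it for Grm6. A probe set's brightness depends on its probes as well as on the transcript, so the receptors are not ranked against each other. Each is given by its place among all 41345 probe sets in wild type. For Grm5, the group I receptor best known for synaptic plasticity in hippocampal pyramidal cells, 97.6% of probe sets were dimmer. In group II, 94.1% were dimmer than Grm2, known from granule cells of the dentate gyrus and their mossy fibres, and 95.2% were dimmer than Grm3, known from astrocytes as well as neurons. In group III, 90.1% of probe sets were dimmer than that of Grm7, a receptor of the presynaptic active zone, 60.4% than that of Grm4, best known from the cerebellum, and 54.9% than that of Grm8. Grm6, the receptor of retinal ON bipolar cells, lay below the median, with 30.2% of probe sets dimmer. A signal this low was not set against a measured background, so it is no evidence that the transcript was present.

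**Figure D1:**
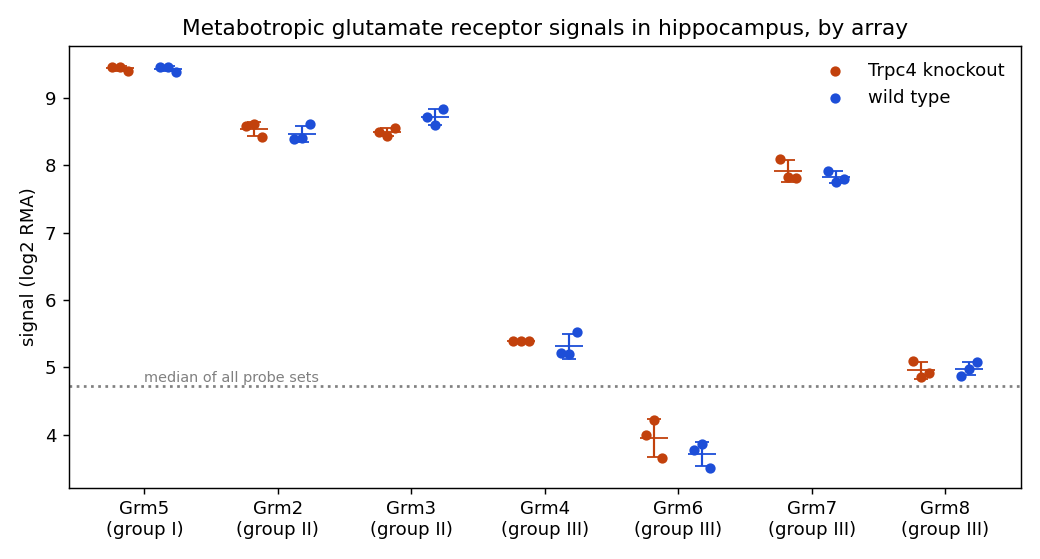
Log2 RMA signal of the 7 receptor genes (x axis, with receptor group) on each array, 3 Trpc4 knockout arrays left of 3 wild-type arrays; points are arrays, horizontal marks the mean and error bars the SD (n = 3), and the dotted line is the median of all probe sets, 4.72. The knockout and wild-type points overlap for every receptor but Grm3, whose knockout points end at 8.56 and whose wild-type points start at 8.60.

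None of the 7 receptor genes passed the test across all genes in Trpc4 knockout hippocampus. Limma with Benjamini-Hochberg adjustment called 0 of the 7, and their adjusted p lay between 0.853 and 0.996. The background was equally empty, with 0% of the 22180 genes called and a lowest adjusted p of 0.738. At an unadjusted p under 0.05 there was 1 receptor, Grm3, against 5.75% of all genes. Of the 7, 5 had a higher mean in knockout, where 54.9% of all genes did, and the median difference was 0.07, against 0.01 over all genes. By group, the single group I receptor was nearly equal, group II had 1 higher and 1 lower member, and group III had 3 higher and 1 lower. With so few arrays the intervals are wide. Over the 6 receptors above the median of all probe sets, the 95% limits of the differences ran from -0.42 to 0.33, which is a knockout signal between 74.6% and 126% of wild type.

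Grm5, the Gq-coupled receptor upstream of phospholipase C, was the steadiest of the receptors. Its signal was 9.46, 9.46 and 9.40 in the knockout samples, against 9.45, 9.45 and 9.39 in the wild-type samples. The groups overlapped, and all 6 arrays lay within 0.07 of each other. The means were 9.44 ± 0.03 in knockout and 9.43 ± 0.04 in wild type (SD, n = 3 each). They differed by 0.01, and the 95% interval ran from -0.16 to 0.17. Only 2.41% of all genes had a smaller spread within groups (pooled SD 0.03). The sign of so small a difference has no meaning here: it turned without knockout replicate 1, knockout replicate 2 or wild-type replicate 3.

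Grm3 was the one receptor whose groups did not overlap. This group II receptor also responds to the peptide transmitter N-acetylaspartylglutamate. Its signal was 8.49, 8.43 and 8.56 in knockout, against 8.71, 8.60 and 8.83 in wild type. Every knockout sample lay below every wild-type sample, although the gap between the highest knockout and the lowest wild-type array was small beside the spread in either group. The means were 8.49 ± 0.06 in knockout and 8.71 ± 0.12 in wild type (SD, n = 3 each). Knockout minus wild type was -0.22 (standard error 0.09, interval -0.42 to -0.02), which puts the knockout signal at 85.8% of wild type. The unadjusted limma p was 0.0358 and the adjusted p over all genes 0.853, so Grm3 did not pass. An exact permutation test, two-sided, gives p = 0.1 for any gene whose groups of 3 do not overlap, and can give none smaller. For Grm3 it therefore adds nothing to the lack of overlap. Groups failed to overlap for 10.9% of all genes, with knockout the lower one for 4.45%. Leaving out single samples moved the difference between -0.28 (without wild-type replicate 2) and -0.16 (without wild-type replicate 3).

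Marker lists of astrocytes, oligodendrocytes and interneurons are set beside Grm3. Of 10 astrocyte markers, 5 were lower in knockout, and all lay above the median of all probe sets. Their summed linear signals were 5179 to 5719 in knockout and 5452 to 5569 in wild type. As a score, the mean deviation of a list's genes from their means over the 6 arrays, astrocytes stood at -0.02, -0.07 and 0.06 in knockout replicates 1 to 3 and at 0.04, -0.02 and 0.0039 in wild-type replicates 1 to 3. The groups of the astrocyte score overlapped. The oligodendrocyte and myelin score was -0.23, -0.56 and 0.07 in knockout, against 0.28, 0.17 and 0.26 in wild type, without overlap. Its lowest sample, knockout replicate 2, was also the lowest for Grm3 and for the astrocyte score, so that sample does not single out either list. Without that sample Grm3 differed by -0.19. The interneuron score was separated too, at -0.06, -0.05 and -0.08 in knockout against 0.02, 0.11 and 0.06 in wild type. All 11 interneuron markers had a lower mean in knockout, where 54.9% of all genes had a higher one, and none of the 11 passed the test. Their summed linear signals overlapped, at 2963 to 3339 in knockout and 3187 to 3667 in wild type. The part of these cell types in the Grm3 difference was not tested. The 10 astrocyte markers differed by -0.16 to 0.17, with Aqp4 lowest and Gjb6 highest, and none of them passed the test.

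**Figure D2:**
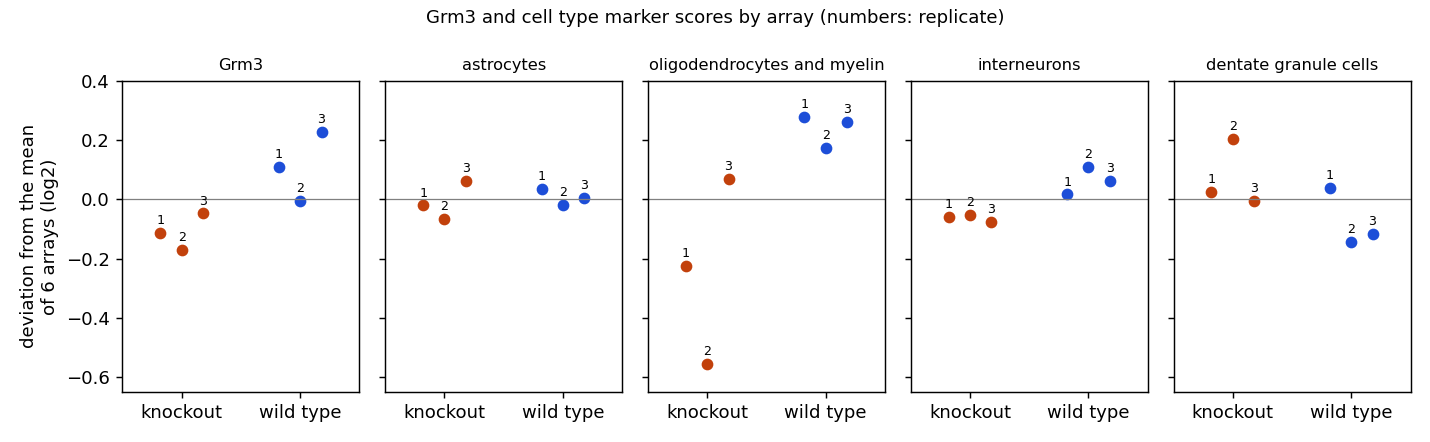
Deviation from the mean of the 6 arrays (log2) for Grm3 and for the scores of 4 marker lists, with knockout arrays left of wild-type arrays and the replicate number over each point. Grm3, the oligodendrocyte and myelin score and the interneuron score are lower in all 3 knockout arrays than in any wild-type array, while the astrocyte and granule cell scores overlap between the groups.

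Grm2, the other group II receptor, had signals of 8.58, 8.61 and 8.41 in knockout and 8.39, 8.41 and 8.61 in wild type. In each genotype 1 array lay at the level of the other genotype. The means were 8.54 ± 0.11 in knockout and 8.47 ± 0.12 in wild type (SD, n = 3 each), and the difference of 0.07 had an interval of -0.15 to 0.29. Grm2 marks dentate granule cells in the hippocampus. Of the 8 granule cell markers 7 had a higher mean in knockout, where 54.9% of all genes did, and none of the 8 passed the test. Their summed linear signals overlapped, at 1473 to 1752 in knockout and 1395 to 1598 in wild type. The score of that list was 0.03, 0.20 and -0.01 in knockout, against 0.04, -0.14 and -0.12 in wild type. Its part in the Grm2 values was not tested.

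In group III, Grm7 encodes the receptor of presynaptic active zones, where it restrains transmitter release. It had signals of 8.10, 7.82 and 7.81 in knockout and 7.92, 7.75 and 7.80 in wild type. Replicate 1 was the highest in both genotypes, and the groups overlapped. The difference was 0.09 with an interval of -0.15 to 0.33, and it was -0.0028 without knockout replicate 1. A second, dimmer probe set that also names Grm7 alone went the other way, at 6.63, 6.92 and 6.54 in knockout against 6.74, 6.84 and 6.92 in wild type. Its difference was -0.14 with an interval of -0.40 to 0.13, so the 2 probe sets of Grm7 did not give one direction, and their mean differed by -0.02.

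Grm4 read 5.40 on all 3 knockout arrays, equal to the last deposited digit, against 5.21, 5.20 and 5.53 in wild type. The wild-type values enclosed the knockout value. An exact tie over 3 arrays is rare in the table, holding for 4 probe sets among the knockout arrays and for 2 to 6 in any set of 3 arrays. The knockout SD of 0 is therefore not a measure of how much Grm4 varies between mice. Its difference was 0.09 with an interval of -0.15 to 0.32, from a standard error of 0.10 that borrows from all genes.

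Grm8 had signals of 5.10, 4.86 and 4.92 in knockout and 4.88, 4.98 and 5.08 in wild type, near the median of all probe sets. The 2 groups covered the same range. The difference was -0.02 (interval -0.25 to 0.20), and leaving out wild-type replicate 3 or knockout replicate 2 turned its sign. A second probe set names Grm8 together with another gene and was not used.

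Grm6 had the widest interval of the 7. Its signal was 4.001, 4.22 and 3.66 in knockout, against 3.78, 3.86 and 3.51 in wild type. The groups overlapped, replicate 3 was the lowest and replicate 2 the highest in both genotypes, and 88.0% of all genes had a smaller spread within groups. The difference of 0.24 had an interval of -0.12 to 0.60 (unadjusted limma p 0.165, adjusted p 0.897). Without knockout replicate 3 the difference was 0.39, without knockout replicate 2 it was 0.11, without wild-type replicate 3 it was 0.14, and with the mean of both probe sets 0.14. The second probe set of Grm6 was dimmer still, at 3.45 ± 0.04 in knockout and 3.42 ± 0.13 in wild type (SD, n = 3 each), with a difference of 0.03. Of the 8 measured genes of the retinal cascade that serves this receptor, all but 3 were dimmer than the median probe set. Trpm1, the TRP channel that the receptor closes in ON bipolar cells, had 3.82 ± 0.16 in knockout and 3.80 ± 0.32 in wild type, and Nyx, the nyctalopin gene, had 3.83 ± 0.08 in knockout and 3.73 ± 0.20 in wild type. The 3 members above the median of all probe sets were Rgs7, Rgs11 and Gnb5, with means over the 6 arrays of 8.41, 5.90 and 8.12.

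**Figure D3:**
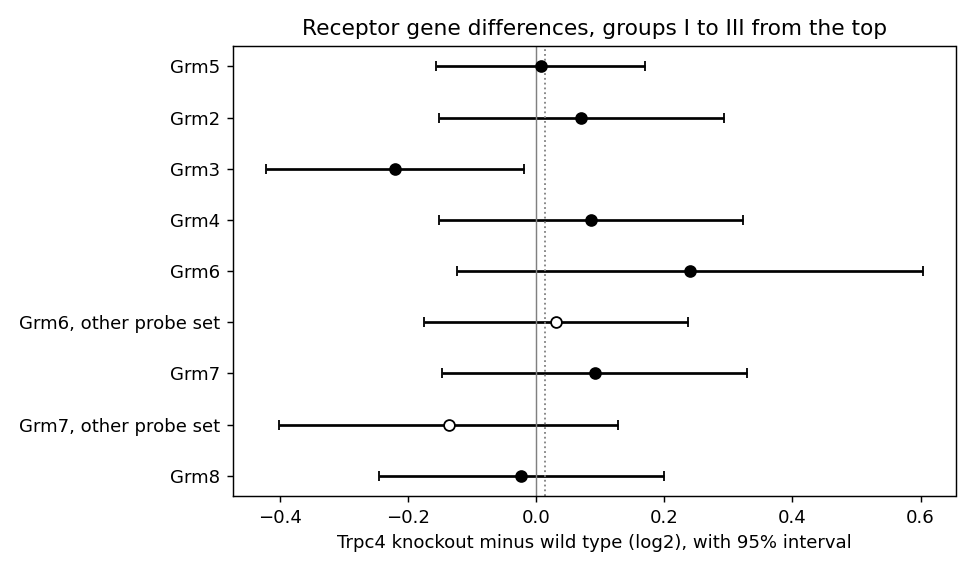
Knockout minus wild type (log2) with its 95% limma interval for each receptor gene, from group I at the top to group III, with filled points for the probe set that stands for the gene, open points for the second probe sets of Grm6 and Grm7, and a dotted line at the median of all genes, 0.01. Only the interval of Grm3, -0.42 to -0.02, lies to one side of 0, and the 2 probe sets of Grm7 lie on opposite sides.

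Genes that anchor, transduce or supply the receptors were followed in 8 lists, which held 70 measured genes. None was called over all genes (0 higher and 0 lower, lowest adjusted limma p 0.849), and 43 had a higher and 27 a lower mean in knockout, with a median of 0.02. At an unadjusted p under 0.05 there were 3 of them, or 4.29%, against 5.75% of all genes. Groups did not overlap for 16, or 22.9%, against 10.9% of all genes. The lists were chosen with earlier results of these data known. Most of their genes lay above the median of all probe sets, while the share over all genes includes dim ones, so the shares are not like for like.

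On the postsynaptic side of group I signalling no gene passed the test. Homer proteins tie Grm5 to Shank scaffolds and to calcium stores, and 8 of 11 genes of the Homer and scaffold list had a higher mean in knockout, with a median of 0.07 and none called. Homer1 had 7.49 ± 0.10 in knockout and 7.48 ± 0.06 in wild type (SD, n = 3 each). Shank2 differed by 0.13 ± 0.07 (standard error) and Homer3 by 0.19 ± 0.14, and the wild-type SD of Homer3 was 0.29. In the Gq pathway 7 of 9 genes were higher, with a median of 0.03 and none called. The phospholipase C gene Plcb3 had 6.02 ± 0.04 in knockout and 6.21 ± 0.11 in wild type, and Rgs4, which shortens Gq and Gi/o signals, had 8.54 ± 0.09 in knockout and 8.38 ± 0.06 in wild type (SD, n = 3 each). Groups did not overlap for 4 of the 9 genes, Plcb3 and Rgs4 among them, against 10.9% of all genes. These 4 are part of the 16 counted above over all lists, and none passed. Among effectors of the long-term depression that group I receptors induce, 5 of 7 were higher, with a median of 0.09 and none called. Eef2k, the kinase that halts translation elongation, differed by 0.18 ± 0.08 and the activity-induced gene Arc by -0.26 ± 0.12 (standard error).

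On the Gi/o side of groups II and III no gene passed either. Of 14 genes for Gi/o subunits, adenylyl cyclases and GIRK channels, 9 were higher, with a median of 0.02 and none called. Gnai2 differed by 0.10 ± 0.07 (standard error) and the cyclase gene Adcy5 by 0.14 ± 0.11. Of the 5 genes whose proteins bind group III receptors, 2 were higher, with a median of -0.01 and none called. Elfn1, a postsynaptic adhesion protein that recruits group III receptors across the cleft, differed by 0.07 ± 0.12, and the scaffold gene Grip1 by 0.04 ± 0.07.

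Of 10 genes for glutamate release, uptake and recycling, 4 were higher, with a median of -0.05 and none called. The vesicular glutamate transporter gene Slc17a7 had 10.90 ± 0.02 in knockout and 10.75 ± 0.07 in wild type (SD, n = 3 each), a difference of 0.15 with an interval of -0.02 to 0.32. Slc7a11, the cystine-glutamate exchanger whose export of glutamate can reach group II receptors, differed by -0.16 ± 0.09 (standard error). Genes that make and break down N-acetylaspartylglutamate or N-acetylaspartate went both ways, 2 of 6 higher with a median of -0.11 and none called. The synthetase gene Rimklb had 7.40, 7.38 and 7.39 in knockout, against 7.20, 7.22 and 7.14 in wild type. Its groups were well apart, and the difference was 0.20 with an interval of 0.04 to 0.37, and its adjusted p over all genes (limma) was 0.849. Folh1, the peptidase that cleaves the peptide outside cells, had 6.37 ± 0.27 in knockout and 6.69 ± 0.15 in wild type (SD, n = 3 each), and its groups overlapped. Aspa, the oligodendrocyte enzyme that degrades N-acetylaspartate, had 6.10 ± 0.36 in knockout and 6.78 ± 0.20 in wild type, a difference of -0.68, and belongs to the myelin list as well. In the retinal cascade 6 of 8 genes were higher, with a median of 0.04 and none called. Rgs9bp differed by 0.27 ± 0.09 (standard error) and Gpr179 by 0.18 ± 0.09, both of them dimmer than the median probe set.

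**Figure D4:**
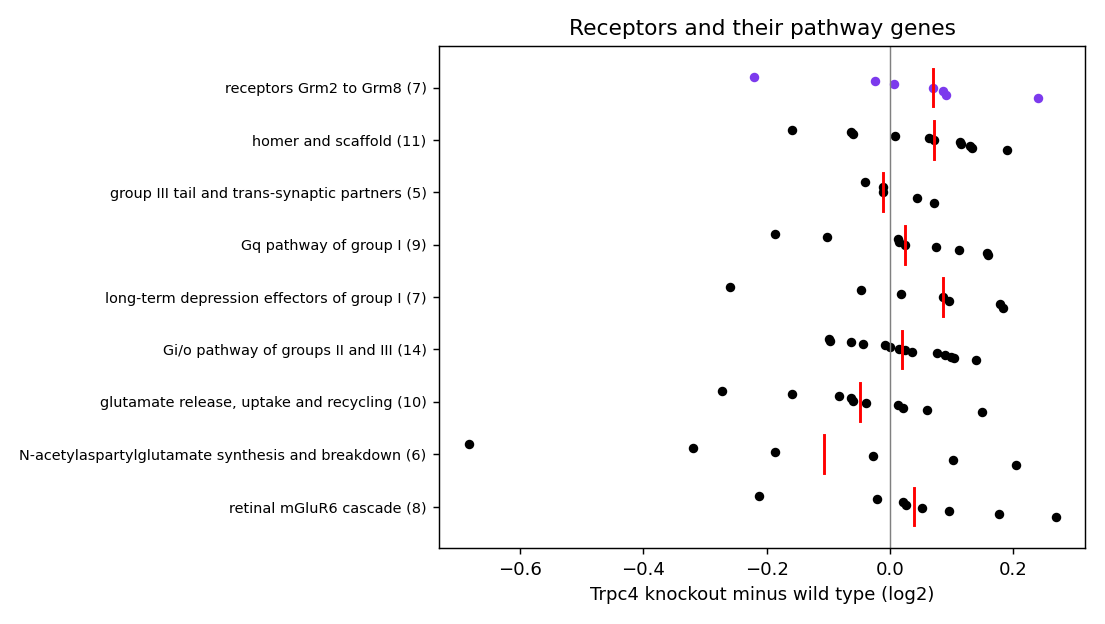
Knockout minus wild type (log2) for the 7 receptors (top, purple) and for the measured genes of 8 pathway lists (black, number of genes in parentheses), 1 point per gene, with a red bar at each list's median. List medians lie between -0.11 and 0.09, and the point farthest left is Aspa at -0.68.

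For each of the 6 receptors above the median of all probe sets, the gene whose signal followed it most closely over the 6 arrays was sought among 11933 other genes above that median. Being the highest of so many, these coefficients describe the arrays and carry no test. The nearest gene was Zdhhc14 for Grm5 (Pearson's r 0.989), Ptchd4 for Grm2 (0.997) and Zfp74 for Grm3 (0.991). In group III it was Znrf1 for Grm4 (0.978), Scg2 for Grm7 (0.990) and Cxxc5 for Grm8 (0.995). Between 55 and 173 genes had an r over 0.9 with each receptor, so none of these partners stands alone.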

How the data were processed

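The values are log2 signals in 1 table that the authors deposited for 6 arrays; the submitters' processing notes name RMA and Affymetrix Power Tools. No version or genome build is given in the sources used here. RMA in general makes the distributions of the arrays equal, so that a shift common to most genes is lost. The number of arrays limits the precision, with a median standard error of 0.10 over all genes.

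Of 41345 probe sets, 23521 name 1 gene in the platform annotation, which can be old, and these gave 22180 genes. Knockout minus wild type was estimated in R 4.3.3 with limma 3.58.1 (functions lmFit and eBayes) from all 6 arrays, with no term besides genotype and Benjamini-Hochberg adjustment over all genes at 0.05. The fit was tested on simulated data, drawn from the mean and spread of each gene. It called 16 of 50 genes changed by 0.5, 42 of 50 changed by 1, and 50 of 50 changed by 2 and by 3. Of 21980 unchanged genes it called 4. Changes smaller than 0.5, the size of all the receptor differences, were not simulated. So many planted changes make the adjustment easier to pass than in the real data, where 0 genes were called. The shares of changed genes called therefore do not give the power there, and Trpc4, at -0.70, did not pass. Figures were drawn with matplotlib 3.10.9.

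The receptor genes and all lists were chosen with earlier results of these data known. Named are all 7 receptors, Trpc4, per pathway list the 2 genes of smallest unadjusted p, and per receptor above the median of all probe sets its nearest gene, with small RNAs, predicted genes, clones and olfactory or vomeronasal receptor names left out. Homer1, Aqp4, Gjb6, Folh1, Trpm1, Nyx, Rgs7, Rgs11, Gnb5, Zic1, Zic2 and Rps13 were named after their values were seen. Same-numbered samples of the 2 genotypes deviated together with r of 0.07, 0.03 and -0.0038 over genes. Samples of unlike number had r of -0.06 to 0.03. With 3 samples per group these values cannot settle whether the numbers pair the samples. The alternatives tried were array weights, a variance with trend and robust fitting, quantile normalization, centring on array medians, the replicate number as a block, a filter on dim genes, the mean of a gene's probe sets, all probe sets as features, and leaving out each sample.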

Additional observations from a re-analysis of the deposited data

How the results depend on the processing

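No receptor gene was called under any of the alternatives run, and Grm2, Grm3, Grm4 and Grm6 kept their direction in all that gave them a value (Grm6 has none with the filter on dim genes). Grm3 lay between -0.28 and -0.16 without single samples and between -0.23 and -0.22 otherwise. Grm2 lay between 0.03 and 0.14, Grm4 between 0.03 and 0.19 and Grm6 between 0.11 and 0.39 without single samples. Grm5 lay between -0.0138 and 0.0263, Grm7 between -0.0028 and 0.1405 and Grm8 between -0.0949 and 0.0275, so their signs turned, and Grm7 was -0.0227 with the mean of its probe sets. Receptors whose groups did not overlap numbered 1 to 3 without single samples, where fewer arrays make it easier. They numbered 3 without knockout replicate 3, 2 without wild-type replicate 1 and 3 without wild-type replicate 3. No share over all genes is given at these settings, so the counts are not read as a result about the receptors. The median difference of the receptors lay between -0.0013 and 0.09 without single samples. The count of 0 genes called over the table became 1 with trend and robust variance (Trpc4) and was 0 to 1 without single samples (Rps13, without knockout replicate 1). With a replicate block, 0 genes and 0 receptors were called, and Grm3 again differed by -0.22. By the labels, a knockout and a wild-type sample of one replicate share only a number, and the block changed no call. The lowest adjusted limma p over all genes was 0.176 with the block, against 0.738 without it.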
